A study of Mus musculus with 24 samples.

Results

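The 10 genes described here make, break down or regulate the polyamines putrescine, spermidine and spermine, or belong to the same enzyme family. They were taken by symbol from 55335 counted genes, and were selected on their differences between genotypes, that is, with the log2 fold changes of cKOm against Ctrlm and of cKOf against Ctrlf known. They comprise ornithine decarboxylase (Odc1), its relative Ldc1, the antizyme Oaz1, the antizyme inhibitor Azin1, S-adenosylmethionine decarboxylase (Amd1), spermidine synthase (Srm), spermine synthase (Sms), the acetyltransferase Sat1 and the oxidases Paox and Smox. Levels are given in CPM, reads scaled to a common library total. All 10 reached the minimum for testing, 1 CPM in 1 kidney or more, as did 16092 of all genes. Whole-kidney RNA came from 24 mice on the C57BL/6J background, 6 each of control males (Ctrlm), knockout males (cKOm), control females (Ctrlf) and knockout females (cKOf). The knockouts carried Pex5 lox/lox, Pax8-rtTA and LC1, so that doxycycline (DOX) switched on Cre in renal tubule cells, where the Pax8 promoter drives rtTA. Controls were Pex5 lox/lox littermates, which share the floxed alleles and are listed without the transgenes. All mice, controls included, were given DOX for 2 weeks starting when they were 8 weeks old, and the kidneys were removed after 4 further weeks, at 14 weeks of age. Pex5 encodes the receptor that brings most matrix enzymes into peroxisomes. Reads of a whole kidney also come from cells outside the tubule, which keep Pex5, and from floxed transcripts that lack only the deleted part.

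Polyamines are small positively charged molecules that bind nucleic acids and are needed for cell growth and translation. ODC removes the carboxyl group of ornithine to give putrescine, and aminopropyl groups from decarboxylated S-adenosylmethionine then extend putrescine to spermidine and spermine. Breakdown runs through acetylation by SAT1 and oxidation by PAOX, which resides in peroxisomes, or through direct oxidation of spermine by SMOX. Antizyme binds ODC and sends it to the proteasome, and the antizyme inhibitor, an ODC-like protein without enzyme activity, releases ODC from it. Ldc1 encodes another member of the ODC family, which acts on leucine. In the mouse kidney, Odc1 is a classic androgen-responsive gene of the proximal tubule.

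Odc1 and Ldc1 were the members that passed the threshold in a comparison of groups, so DNA upstream of their start sites is shown. Sequences are from RefSeq on GRCm38.p6, 5′ to 3′ on the strand of the gene. Capitals mark GGGCGG on either strand, written CCGCCC where it lies on the other strand. The Odc1 stretch is chr12:17544623-17544793 (plus strand) and the Ldc1 stretch is chr4:130222429-130222545 (minus strand).
Odc1: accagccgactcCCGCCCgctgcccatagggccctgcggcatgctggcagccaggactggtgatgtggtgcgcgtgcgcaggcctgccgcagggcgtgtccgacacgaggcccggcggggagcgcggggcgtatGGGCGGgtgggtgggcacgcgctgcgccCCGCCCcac
Ldc1: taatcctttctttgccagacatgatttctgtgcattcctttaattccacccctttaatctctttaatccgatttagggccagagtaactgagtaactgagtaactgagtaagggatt
The Odc1 stretch of 171 bases had a GC content of 77.2% and held 3 GGGCGG motifs, and the Ldc1 stretch of 117 bases had a GC content of 38.5% and held none. Each printed stretch ends before the first base annotated as transcribed. Windows from 250 bases before to 50 after a RefSeq start were searched on both strands for TGTTCT (the core hexamer of androgen response elements), CACGTG (an E-box), TATAAA and GGGCGG. For Odc1 and Ldc1 the start used for the window lies inside the annotated gene. The window thus begins with the printed stretch and runs past its end to 50 bases after that start. Over 32851 windows of all genes, 18.97% held TGTTCT, 7.15% CACGTG, 13.6% TATAAA and 35.7% GGGCGG. The full Odc1 window held 4 GGGCGG and none of the other motifs, and the full Ldc1 window held none of the 4 motifs. Among the other members with a window, TGTTCT occurred in Sat1, CACGTG in Sms and TATAAA in Oaz1. GGGCGG occurred in Amd1 (1), Sat1 (2), Sms (4 in 2 windows), Paox (6 in 2 windows) and Smox (6), so it was not particular to Odc1. The 2 windows of Paox overlap, and its 6 are the same sites counted in both. Azin1 and Srm were not among the windows used. Outside the promoter, the coding sequence of Odc1 (1386 bases) was identical to that of Ldc1 (1278 bases) at 63.4% of aligned bases and to that of Azin1 (1347 bases) at 64.1%, and Ldc1 and Azin1 shared 60.6%.

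The reads assigned to genes numbered 19376152 to 28470831 per kidney. Markers of the proximal tubule summed to between 9958 and 14530 CPM in every kidney, and no gene of the lists for the thick limb, distal convoluted tubule, collecting duct, podocyte or endothelium was at 0 in any kidney, so the tissue matched its label. Transcripts of 16 liver genes summed to over 400 CPM in 5 kidneys, those of Ctrlm mice 1 to 4 and of cKOm mouse 4, and to between 56.8 and 136 CPM in the other 19. Calls that were lost without these kidneys are given with and without them. Pex5 itself was lower in every cKOm than in every Ctrlm mouse (log2 fold change -0.31, standard error 0.08, edgeR adjusted p = 0.0219), and its difference in females was -0.21 (standard error 0.08, adjusted p = 0.177). The paper reports significantly lower Pex5 mRNA in knockouts of both sexes, with PEX5 protein substantially lower in cKOf kidneys. Some full-length Pex5 mRNA and PEX5 protein remained in cKOf kidneys, and the paper proposes incomplete excision there. By its electron microscopy, peroxisomes were virtually absent from proximal tubules of both sexes. Where genotype effects are compared between males and females, sex and extent of deletion thus cannot be told apart. Over 22 alternatives the adjusted p of the male Pex5 difference ranged from 0.00544 to 0.382. The call was lost when the kidneys with liver transcripts were left out (adjusted p = 0.382), a comparison of 5 with 2 mice. It was also lost with the liver transcripts as a covariate in all 24 mice (adjusted p = 0.117), and without Ctrlm mouse 2 (adjusted p = 0.0656) or cKOm mouse 4 (adjusted p = 0.0504).

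Per kilobase of exon, Odc1 was the most abundant member in each of the 4 groups. In Ctrlm mice it reached 430 ± 191 CPM per kilobase (SD, n = 6), above Sat1 with 68.2 ± 9.12 and Azin1 with 36.2 ± 3.50. Ldc1 (21.5 ± 7.75) and Oaz1 (19.5 ± 2.04) followed and did not differ beyond their spread. Amd1 (6.38 ± 1.76) and Srm (6.18 ± 1.46) were also indistinguishable, Sms was at 3.58 ± 0.77, and the oxidases Smox (1.72 ± 0.21) and Paox (1.02 ± 0.25) were lowest. In Ctrlf mice the order was the same except that Srm stood before Amd1, at levels that overlapped. The order in cKOm mice differed in that Ldc1 dropped from the fourth to the seventh place, at 3.90 ± 1.13 CPM per kilobase, next to Sms (3.58 ± 0.363), and Srm also stood before Amd1. Odc1 alone made up 57.0 to 78.7% of the CPM of all 10 members in Ctrlm kidneys, against 49.6 to 56.3% in cKOm, 41.9 to 51.4% in Ctrlf and 42.5 to 47.0% in cKOf kidneys.

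**Figure D1:**
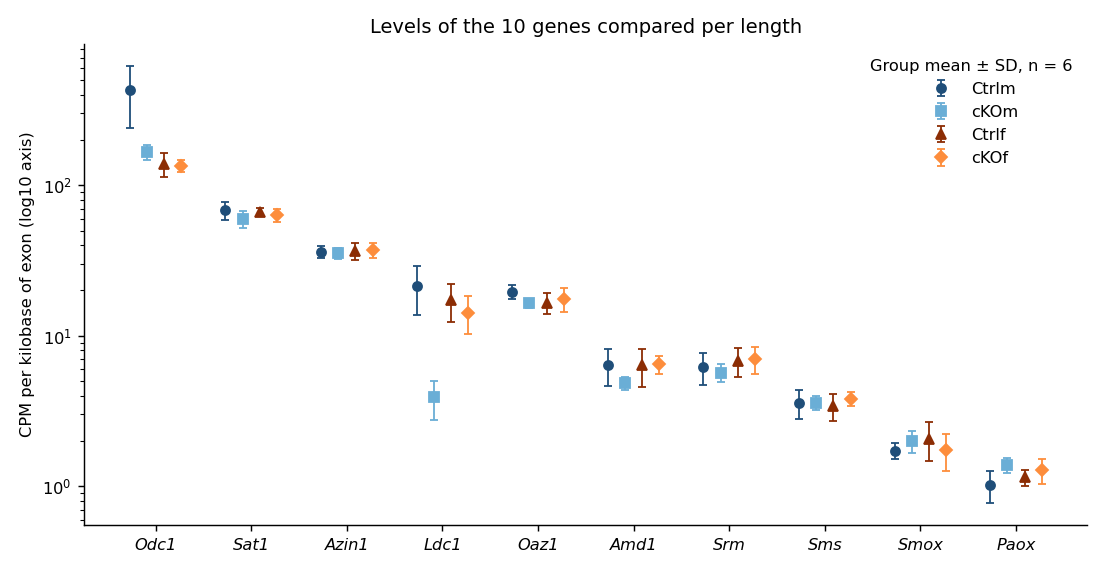
Mean level of each gene in CPM per kilobase of exon (log10 axis) with the SD over 6 mice, by group. Odc1 is highest in each group, and Ldc1 is the gene whose cKOm mean (3.90) lies apart from the other groups (14.2 to 21.5).

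Odc1, which sets the pace of polyamine synthesis, occupies bases 17544794 to 17551505 of chromosome 12 (GRCm38). Its level in Ctrlm mice ranged from 725 to 2499 CPM with a median of 1435, and in cKOm mice from 473 to 630 with a median of 583. In Ctrlf mice it ranged from 393 to 612 with a median of 452, and in cKOf mice from 407 to 518 with a median of 465.7. The 6 Ctrlm kidneys were thus the highest of all 24, and they were also the most spread. The Ctrlm mean of 1465 ± 649 CPM and the cKOm mean of 566 ± 62.7 (SD, n = 6) differed 2.59-fold, lower in cKOm (log2 fold change -1.37, standard error 0.19). In females the means were 474 ± 87.3 in Ctrlf and 459 ± 43.9 in cKOf mice, and the log2 fold change was -0.04 (standard error 0.19). These genotype contrasts were known when the genes were listed, so they are a description and carry no p.

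The sexes were not compared by the rule that chose the genes, although the same mice enter the contrasts known at that time. Odc1 was 3.09-fold higher in Ctrlm than in Ctrlf mice, with no overlap (log2 fold change 1.63, standard error 0.19, edgeR adjusted p = 5.35e-07, two-sided exact permutation p = 0.00216, the smallest that 6 against 6 mice allow). Between the knockouts, where the groups overlapped, the fold change of cKOm against cKOf was 0.30 on the log2 scale (standard error 0.19, approximate 95% interval -0.09 to 0.70, edgeR adjusted p = 0.345). Of the 6 cKOm mice, 4 were above every cKOf mouse (two-sided exact permutation p = 0.0152, not adjusted). The edgeR fit of these 2 groups alone called the difference (adjusted p = 0.0272, range over 22 alternatives 0.0272 to 0.461). Leaving out the 5 kidneys with liver transcripts gave a log2 fold change of 1.90 for Ctrlm against Ctrlf (adjusted p = 1.47e-06, 2 against 6 mice, range over 22 alternatives 6.29e-13 to 0.000228) and of -1.60 for cKOm against Ctrlm. In bulk tissue, fewer cells of a type and less RNA per cell cannot be told apart.

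**Figure D2:**
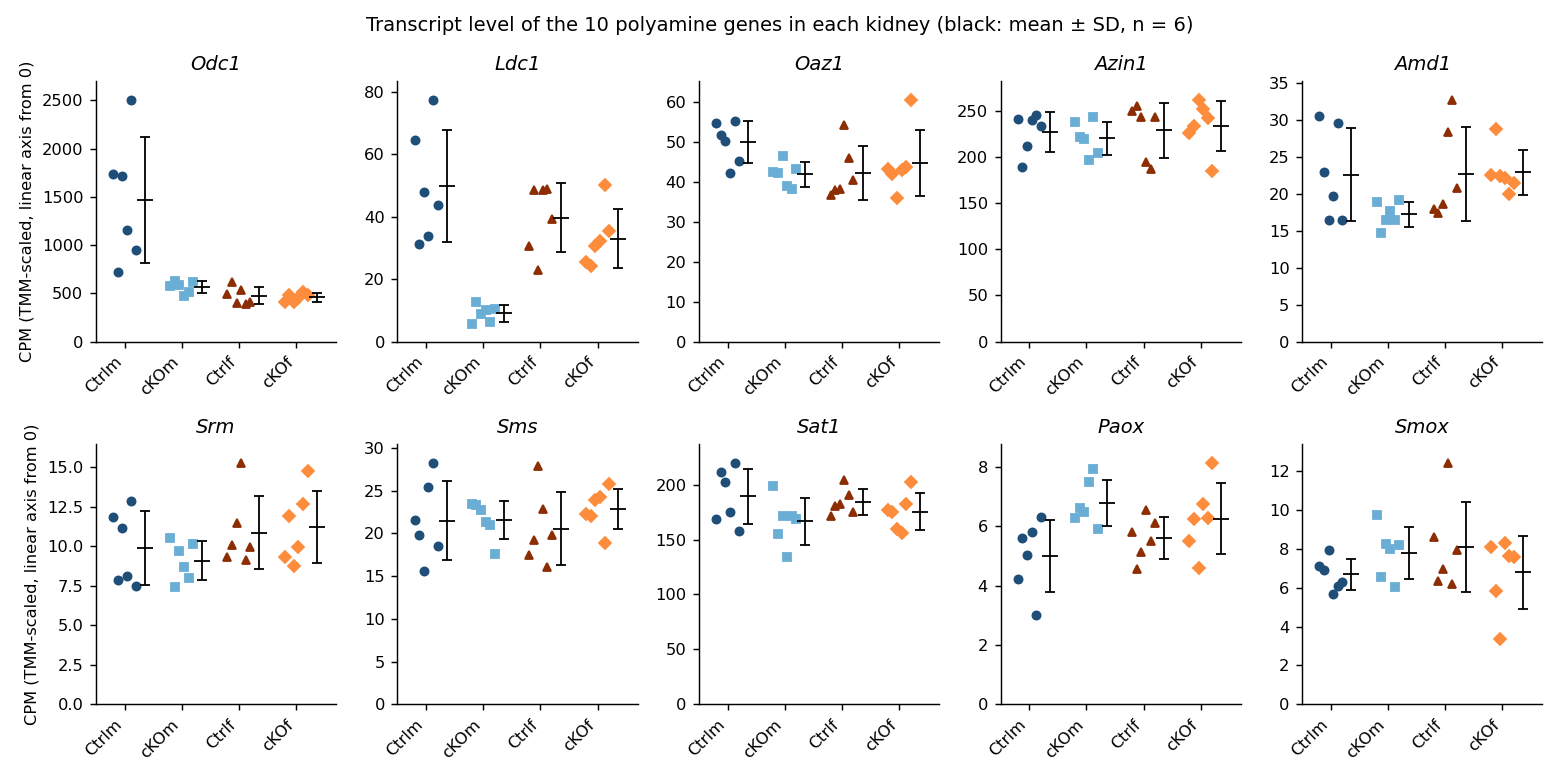
CPM of each of the 10 genes in each kidney (linear axes from 0), with 1 point per mouse and the mean ± SD of 6 mice in black. Odc1 stands out in Ctrlm mice (725 to 2499 CPM) and Ldc1 in cKOm mice (5.72 to 12.8 CPM), while the groups overlap for most of the other genes.

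Ldc1, on chromosome 4 from 130209109 to 130222401, had another pattern. Its level ranged from 31.3 to 77.2 CPM in Ctrlm mice with a median of 45.7, and from 5.72 to 12.8 in cKOm mice with a median of 9.46. In Ctrlf mice it ranged from 22.8 to 48.9 (median 43.8), and in cKOf mice from 24.1 to 50.1 (median 31.4). Here it was the cKOm group that stood apart, with each of its 6 kidneys below the other 18. The means were 49.7 ± 17.9 CPM in Ctrlm and 9.03 ± 2.62 in cKOm mice, 5.50-fold lower in cKOm (log2 fold change -2.46, standard error 0.24), and 39.7 ± 10.998 in Ctrlf and 32.9 ± 9.36 in cKOf mice (log2 fold change -0.27, standard error 0.22). Again these genotype values are given without a test.

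Ldc1 showed no detected difference between control sexes. Its log2 fold change of Ctrlm against Ctrlf was 0.32 (standard error 0.22, approximate 95% interval -0.15 to 0.79, edgeR adjusted p = 0.412). In the knockouts it was 3.65-fold lower in cKOm than in cKOf mice, with no overlap (log2 fold change -1.87, standard error 0.24, adjusted p = 1.85e-06, two-sided exact permutation p = 0.00216). Without the kidneys with liver transcripts, the value for cKOm against cKOf was -1.90 (adjusted p = 1.63e-05, the highest of 22 alternatives, the lowest being 2.98e-11) and that for cKOm against Ctrlm was -2.81. In the edgeR fit of all 4 groups, Odc1 thus passed the sex test in controls and Ldc1 that in knockouts.

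**Figure D3:**
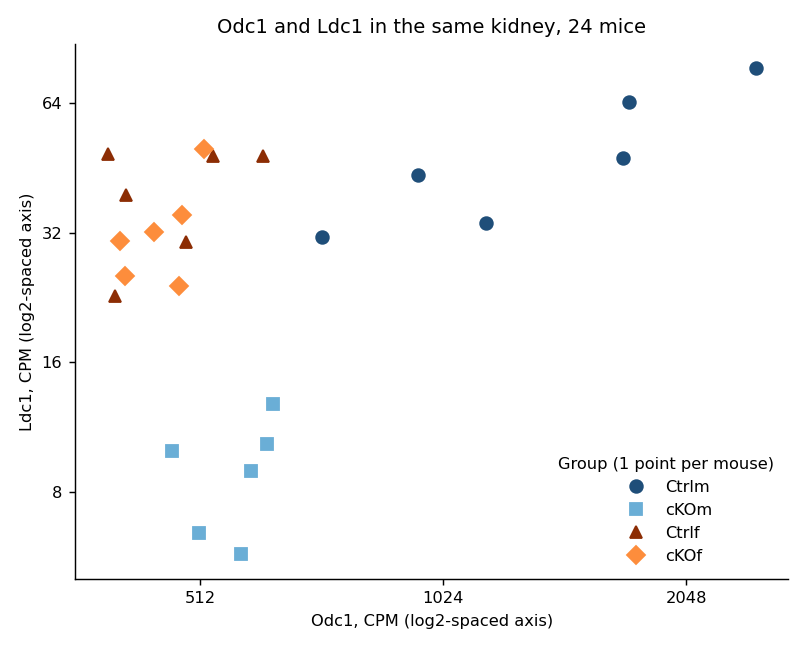
Odc1 against Ldc1 in CPM (both axes spaced by log2), 1 point per mouse and 1 symbol per group. Ctrlm mice lie to the right (Odc1 at 725 CPM or more), cKOm mice at the bottom (Ldc1 at 12.8 CPM or less), and both female groups overlap at the upper left.

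Within a group of mice the genotype and sex contrasts play no part, so the levels of Odc1 and Ldc1 were compared mouse by mouse. In the 6 Ctrlm mice, Pearson's r was 0.92 (two-sided exact permutation p = 0.0139, adjusted over 4 groups p = 0.0556) and Spearman's rho was 0.94 (exact permutation p = 0.0167, adjusted p = 0.0667). The r was 0.72 without the 2 mice farthest from the median of Odc1. It was 0.41 in cKOm (exact permutation p = 0.383, adjusted p = 0.383, rho 0.60), 0.43 in Ctrlf (p = 0.375, adjusted p = 0.383, rho 0.09) and 0.65 in cKOf mice (p = 0.125, adjusted p = 0.25, rho 0.60). Without the 2 farthest mice, r in these groups was 0.96, -0.32 and 0.68. None of the 4 relations passed the threshold after adjustment. The median number of Odc1 reads per Ldc1 read was 29.7 for Ctrlm, 63.0 for cKOm, 11.8 for Ctrlf and 13.9 for cKOf kidneys.

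Of the regulators of ODC, Oaz1 ranged from 42.3 to 55.4 CPM for Ctrlm, 38.2 to 46.5 for cKOm, 36.7 to 54.2 for Ctrlf and 36.0 to 60.5 for cKOf mice, and all groups overlapped. Its log2 fold change was -0.25 (standard error 0.11) for cKOm against Ctrlm and 0.08 (standard error 0.11) for cKOf against Ctrlf. Between control sexes the value was 0.24 (standard error 0.11, adjusted p = 0.153), and without Ctrlf mouse 4, the highest of its group, it was 0.34 and passed the threshold (adjusted p = 0.0306, range over 22 alternatives 0.0306 to 0.456). Azin1 barely varied. Its group means lay between 220 and 233 CPM, the genotype differences were -0.04 in males and 0.03 in females, and the sex differences were -0.01 in controls (adjusted p = 0.961) and -0.08 in knockouts (adjusted p = 0.643), each with a standard error of 0.09. The approximate 95% interval of the control sex difference was -0.20 to 0.18 on the log2 scale.

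Among the enzymes that extend putrescine, Amd1 supplies the aminopropyl donor. Its level was 16.4 to 30.5 CPM for Ctrlm, 14.7 to 19.1 for cKOm, 17.4 to 32.6 for Ctrlf and 19.996 to 28.7 for cKOf mice. The log2 fold change was -0.39 (standard error 0.16) for cKOm against Ctrlm and 0.01 (standard error 0.16) in females. Each cKOm mouse was below each cKOf mouse (log2 fold change -0.41, standard error 0.16, two-sided exact permutation p = 0.00216), but the edgeR adjusted p was 0.0991 over all genes, and 0.0101 when only these 2 groups were fitted (range over 22 alternatives 0.0101 to 0.222). Srm made 9.07 to 11.2 CPM on average in each group, with log2 fold changes of -0.12 in males and 0.05 in females and, between sexes, of -0.14 in controls (adjusted p = 0.653) and -0.31 in knockouts (standard error 0.16, adjusted p = 0.237). Sms, on the X chromosome, had means between 20.5 and 22.8 CPM, and its log2 fold changes were 0.00 in males, 0.16 in females, 0.07 between control sexes (adjusted p = 0.813) and -0.08 between knockout sexes (adjusted p = 0.759).

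Of the breakdown enzymes, Sat1, also on the X chromosome, was the most abundant, with means of 189 ± 25.3 CPM for Ctrlm, 167 ± 21.6 for cKOm, 184 ± 11.8 for Ctrlf and 175 ± 16.7 for cKOf mice. Its log2 fold changes were -0.18 in males and -0.07 in females (standard error 0.09), and neither sex difference passed the threshold (0.04, adjusted p = 0.847 in controls, and -0.07, adjusted p = 0.692 in knockouts). Paox, the peroxisomal oxidase, was at 3.03 to 6.33 CPM in Ctrlm and 5.90 to 7.94 in cKOm mice, so that the groups overlapped. Its log2 fold change was 0.44 (standard error 0.16) in males, the largest positive value among the members, and 0.16 (standard error 0.16) in females. Smox, the spermine oxidase, gave 0.22 in males and -0.25 in females (standard error 0.19). Between sexes Paox gave -0.16 in controls (adjusted p = 0.581) and 0.12 in knockouts (adjusted p = 0.710), and Smox gave -0.27 (adjusted p = 0.399) and 0.20 (adjusted p = 0.568).

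**Figure D4:**
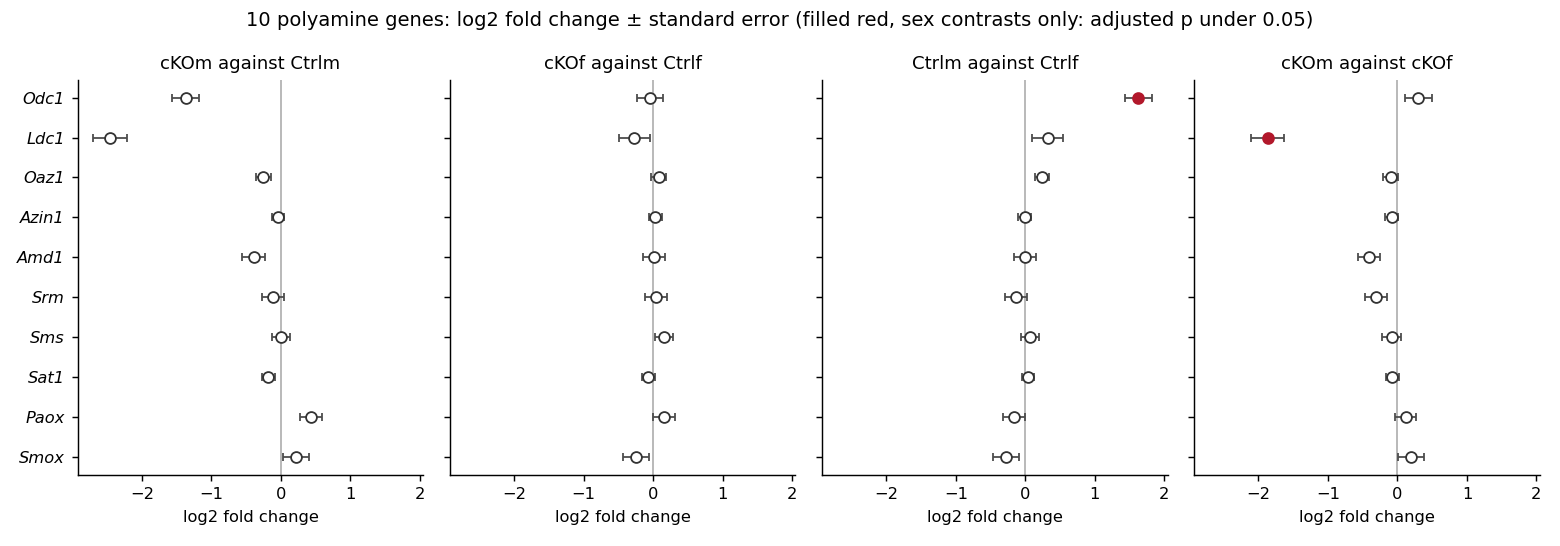
Log2 fold change of each of the 10 genes with its standard error in the 4 contrasts, filled in red in the 2 sex contrasts where the adjusted p was under 0.05. The filled points are Odc1 (1.63) for Ctrlm against Ctrlf and Ldc1 (-1.87) for cKOm against cKOf, and the lowest values of cKOm against Ctrlm are those of Odc1 (-1.37) and Ldc1 (-2.46).

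In the male genotype test, 2 of the 10 members passed the threshold, both lower and both without overlap, where 9.05% of all 16092 genes passed, 4.14% as higher and 4.9% as lower, and 7.38% had no overlap. Because the list was drawn up with this contrast known, nothing is read from that count. Their median log2 fold change was -0.15, and that of all genes was 0.01. In females 0 of 10 passed in the edgeR test and 0 also by limma-voom and DESeq2. Of all genes 0.851% passed the edgeR test (0.391% higher, 0.46% lower) and 0.559% had no overlap. An unadjusted p under 0.05 was found for 0 members in females and 5 in males, beside 1083 and 4039 of all 16092 genes. The list was drawn up with both genotype contrasts known, so nothing is read from these counts either. Between control sexes 1 of 10 members passed (Odc1, higher and without overlap). Of all genes 15.7% passed that test, 8.17% as higher and 7.48% as lower, and 7.35% had no overlap. Between knockout sexes 1 of 10 passed (Ldc1, lower), and 2 (Ldc1 and Amd1) had no overlap. Of all genes 9.72% passed that test, 4.8% as higher and 4.92% as lower, and 6.77% had no overlap. The members' counts in the sex tests were thus near the background. The median sex difference of the members was 0.02 in controls and -0.08 in knockouts, beside -0.03 and -0.01 for all genes.

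The levels of several marker lists also differed between the groups. A list of 9 androgen-responsive kidney genes summed to 15516 to 33926 CPM in control males, 5127 to 8437 in knockout males, 2925 to 5805 in control females and 1812 to 4106 in knockout females. Of these 9 genes, 6 were lower and 1 was higher past the threshold in cKOm against Ctrlm, 9 were higher in Ctrlm than in Ctrlf and 7 were higher in cKOm than in cKOf mice, where Ldc1 was lower. In cKOf against Ctrlf 2 were higher, and 1 (Slco1a1) was at 0 in at least 1 kidney. Markers of the last (S3) segment of the proximal tubule, of which 2 (Slc7a13 and Cyp7b1) are also on the androgen list, summed to 2356 to 3398 CPM in control males, 885 to 1275 in knockout males, 596 to 819 in control females and 399 to 675 in knockout females, with 4 of 5 lower in cKOm than in Ctrlm and none at 0. Between sexes, 4 of the 5 were higher and 1 was lower past the threshold in Ctrlm than in Ctrlf mice. The same counts were found for cKOm against cKOf mice. Markers of the whole proximal tubule were at 12337 to 14530 CPM in Ctrlm and 9958 to 10874 in cKOm mice, with 4 of 8 lower. Those of the thick limb were at 4516 to 5665 CPM in Ctrlm and 5834 to 6719 in cKOm mice, with 2 of 4 higher. The part of these differences in the results on Odc1 and Ldc1 was not tested.

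A wider list of 30 genes around the pathway was drawn up from general knowledge with earlier results of these data known, none of them a member, and 27 of them were tested. Oaz3, Amd2 and Satl1 stayed under the filter. In cKOm against Ctrlm, 5 of 27 (18.5%) passed, 2 higher and 3 lower, beside 9.05% of all genes. An unadjusted p under 0.05 was found for 15 of the 27, beside 4039 of all 16092 genes. The list's median log2 fold change was -0.14. Slc22a2, an organic cation transporter, was lower, at 206 to 337 CPM in Ctrlm and 153 to 205 CPM in cKOm mice (log2 fold change -0.56, standard error 0.12, adjusted p = 0.0043). Oaz2, a second antizyme, was lower by a log2 fold change of -0.34 (standard error 0.08, adjusted p = 0.0139), and Agmat, which turns agmatine into putrescine, by -1.22 (standard error 0.36, adjusted p = 0.0462) at a level of only 1.72 CPM in Ctrlm mice. Arg2, the mitochondrial arginase that makes ornithine, rose by 0.89 (standard error 0.25, adjusted p = 0.0300), and Oat, ornithine aminotransferase, which consumes ornithine, rose by 0.31 (standard error 0.09, adjusted p = 0.0325).

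The male calls of Arg2, Oat and Agmat were lost in 10, 14 and 15 of 22 alternatives. Only the call of Slc22a2 held in all 22, and without the kidneys with liver transcripts it was the single call left (1 of 27, log2 fold change -0.79, adjusted p = 0.00597). In that comparison Arg2 gave 1.32 (adjusted p = 0.065), Oat 0.23 (adjusted p = 0.459), Agmat -0.63 (adjusted p = 0.691) and Oaz2 -0.45 (adjusted p = 0.0629). The male count fell from 5 to 2 without Ctrlm mouse 3 or 5, and to 3 without Ctrlm mouse 1 or 2 or cKOm mouse 2, 3, 5 or 6. Over all 22 alternatives it ranged from 1 to 7. In females 0 of 27 genes passed in the edgeR test (0.851% of all genes did), with 2 at an unadjusted p under 0.05, beside 1083 of all 16092 genes. By limma-voom 0 passed, and by DESeq2 1. That gene was Oat, whose cKOf mice (247 to 290 CPM) were each below the Ctrlf mice (295 to 424 CPM), and its log2 fold change was -0.28 (standard error 0.09, adjusted p = 0.0564). An interaction term tested whether the genotype effect differed by sex, and 3 genes passed (11.1%), 2 higher and 1 lower in males, beside 2.31% of all genes (0.82% higher, 1.49% lower). It was 1.28 for Arg2 (standard error 0.33, adjusted p = 0.0354), 0.59 for Oat (standard error 0.12, adjusted p = 0.0055) and -0.88 for Slc22a2 (standard error 0.17, adjusted p = 0.0031). Without the kidneys with liver transcripts, Oat gave 0.51 and lost its call (adjusted p = 0.0978).

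Between control sexes, 8 of 27 wider genes (29.6%) passed, 5 higher and 3 lower in Ctrlm, beside 15.7% of all genes. The mitochondrial arginase Arg2 was at 1.98 to 3.96 CPM in Ctrlm and 13.7 to 19.5 in Ctrlf mice (log2 fold change -2.68, standard error 0.25, adjusted p = 5.5e-09). Oat was at 102 to 143 CPM in Ctrlm and 295 to 424 in Ctrlf mice (-1.40, standard error 0.09, adjusted p = 2.58e-12). Both ornithine enzymes were thus lower in males without overlap, as was Gpc1, the heparan sulfate carrier glypican-1 (-0.55, adjusted p = 0.0038). Slc22a2 was 2.18-fold higher in Ctrlm, also without overlap (log2 fold change 1.12, standard error 0.12, adjusted p = 1.22e-07). Smaller rises were found for Mat2a, which makes S-adenosylmethionine in most tissues (0.39, adjusted p = 0.0127), and Oaz2 (0.26, adjusted p = 0.0351). The call of Mat2a was lost without the kidneys with liver transcripts (0.25, adjusted p = 0.332) and with those transcripts as a covariate (0.36, adjusted p = 0.11), and that of Oaz2 was lost with the covariate (adjusted p = 0.0554) but not without the kidneys (0.39, adjusted p = 0.0464). The 2 remaining calls, Arg1 (3.97, adjusted p = 0.0117) and Mat1a (4.70, adjusted p = 0.0123), are genes of the liver, and their levels of 4.61 to 8.72 and 6.26 to 13.2 CPM in Ctrlm mice 1 to 4 compared with at most 0.94 and 0.26 CPM in Ctrlm mice 5 and 6. With the liver transcripts as a covariate, their log2 fold changes were -0.13 and -1.34 and neither passed.

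Between knockout sexes, 4 of 27 (14.8%) passed, beside 9.72% of all genes, and all 4 were lower in cKOm. They were Arg2 (-1.40, adjusted p = 8.3e-05), Oat (-0.82, adjusted p = 6.78e-08), Gpc1 (-0.99, adjusted p = 2.91e-06) and the diamine oxidase Aoc1 (-0.96, adjusted p = 0.0100). Arg2, Oat and Gpc1 were lower in males in both genotypes, and these calls held in all 22 alternatives of each sex test.

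**Figure D5:**
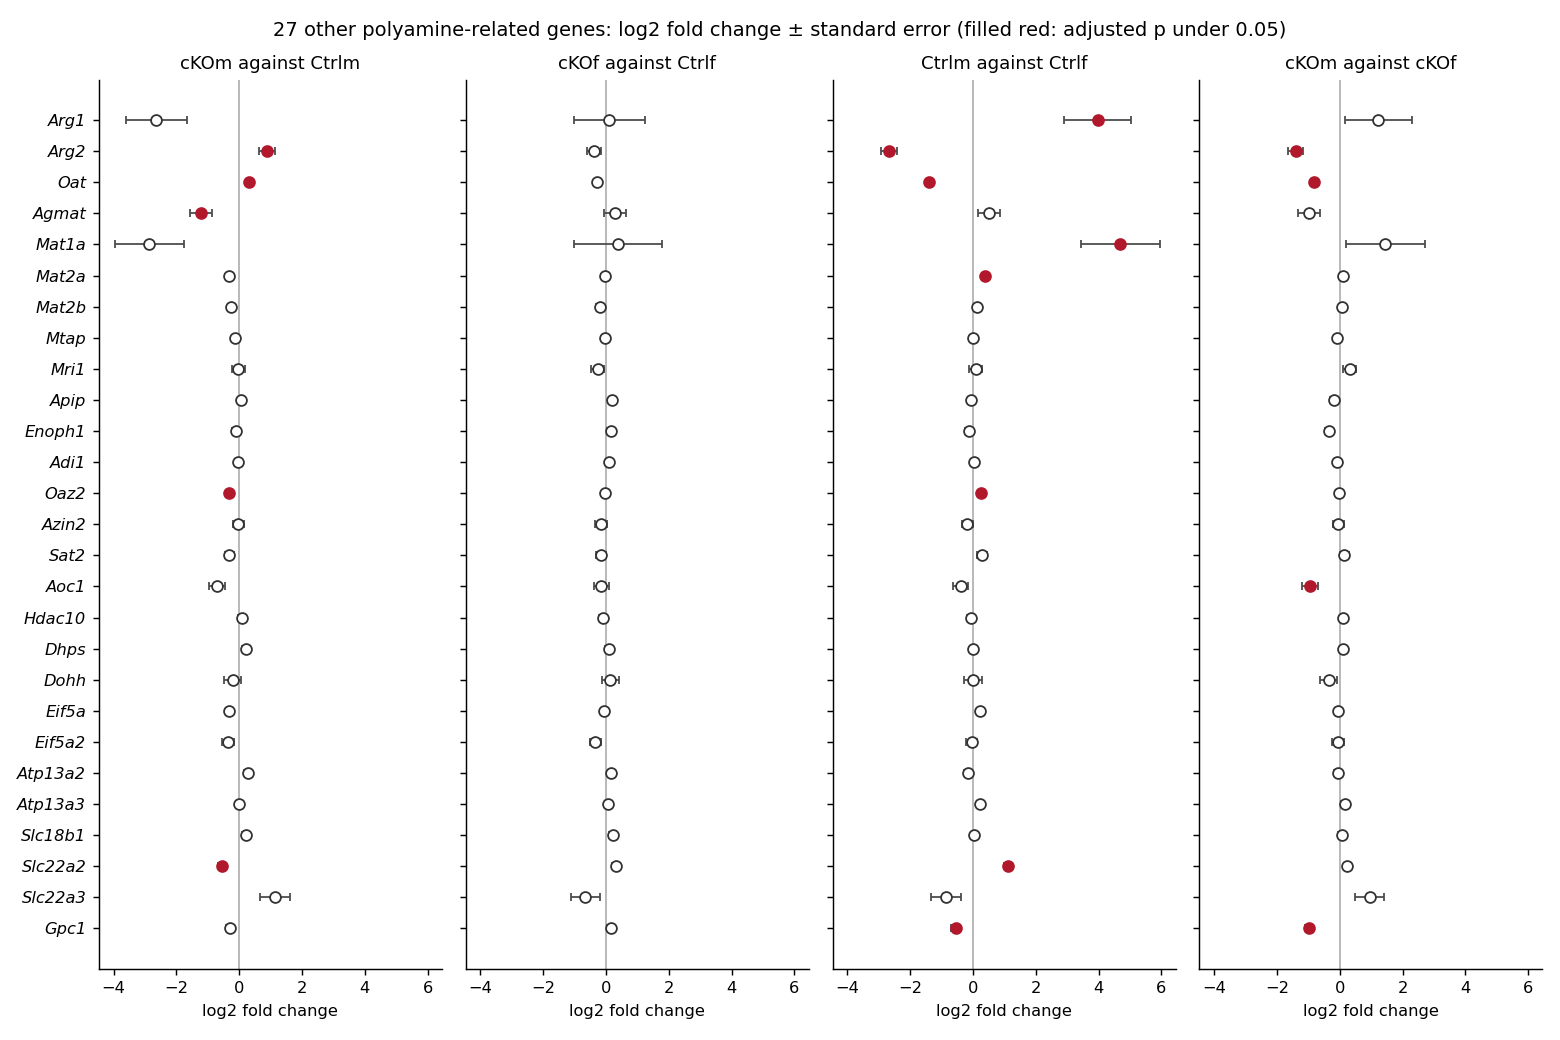
Log2 fold change of the 27 tested genes of the wider list with its standard error in the 4 contrasts, filled in red where the adjusted p was under 0.05. There are 5, 0, 8 and 4 filled points from left to right, and the widest error bars belong to Arg1 and Mat1a.

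Genes with the most similar levels were found by Pearson's r of log2 CPM over the 24 kidneys, which share libraries and 4 group means, so r is given as a description. For Odc1 the first 5 of 16091 genes were Lap3 (0.96), Them7 (0.95), Acy3 (0.95), Cckar (0.94) and Fuca2 (0.94). Ldc1 came at rank 2479 with an r of 0.39. For Ldc1 the first 5 were Gpm6a (0.92), Slc22a7 (0.92), Tmem189 (0.90), Bdh1 (0.90) and Chrdl1 (0.89), none of them shared with Odc1. Odc1 came at rank 1815 for Ldc1. With the group means taken off, the first 5 for Odc1 were Synpr (0.85), Lap3 (0.84), Tbcb (0.82), Emc6 (0.82) and Tmem125 (0.82). Ldc1 was at rank 527 there. For Ldc1 the first 5 were then Akr1c18 (0.85), Cmtm6 (0.81), Cd55 (0.80), Mpi (0.80) and Cnih1 (0.79), with Odc1 at rank 104. The r of Odc1 with Ldc1 was then 0.61. Means of Synpr were only 0.67, 0.062, 0.022 and 0 CPM in Ctrlm, cKOm, Ctrlf and cKOf mice, so few reads entered its r. Lap3 is the only gene that appears in both lists of Odc1, with means of 503, 245, 211 and 198 CPM in Ctrlm, cKOm, Ctrlf and cKOf mice. The mean of Slc22a7 was 227, 13.2, 262 and 259 CPM in the same order.

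Reads that aligned to more than 1 place, or fell on more than 1 gene, were tallied on lines of their own and not split between genes. Of stretches of 100 bases in the transcripts, 67.1% of those of Amd1 also occur in other genes (Amd2 and pseudogenes such as Amd-ps3), so its level is uncertain. The share was 23.6% for Paox, whose stretches also occur in Gm19680, which holds the most of them, and in Echs1. Paox overlaps Echs1 on the opposite strand by 142 exon bases. The genes that share stretches with Paox summed to 94.1 to 177 CPM, far above Paox itself. The share was 16.4% for Sms, 14.5% for Oaz1 and 10.1% for Odc1. It was 3.93% for Azin1 and 0.126% for Sat1, and 0 for Ldc1, Srm and Smox. The genes that share stretches with Odc1 summed to 12.5 to 23.6 CPM, small beside the 393 CPM of the lowest Odc1 value.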

How the data were processed

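RNA of whole kidneys was sequenced from 24 mice, 6 per group, with groups taken from the labels. Per the labels, the authors processed reads with cutadapt 1.8, STAR 2.5.3a and HTSeq 0.9.1 on GRCm38 after a stranded library kit, and deposited whole counts of reads per gene without normalization. The strand setting of the counting is not given in the sources used here. Lines for reads on no gene, on more than 1 gene or aligned to more than 1 place (34.0 to 41.5% of the total, most of it the last kind) were set aside. Names, positions and exon lengths came from GENCODE for GRCm38, with Ldc1 matched through its RefSeq synonym, and 55154 of 55335 identifiers matched.

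Genes that reached 1 CPM in 1 or more kidneys (16092) were fitted in edgeR 4.0.16 (R 4.3.3) with TMM scaling, 1 model of the 4 groups and quasi-likelihood tests. P values were adjusted by Benjamini-Hochberg over all genes of both genotype tests together, of both sex tests together, and of the interaction alone, with a threshold of 0.05. CPM values are scaled by TMM, log2 CPM used a prior count of 2, and the floor of 3 counts was 0.0959 to 0.157 CPM after scaling, which covers counting error only. Intervals of log2 fold changes are approximate, from the standard error and 20 residual degrees of freedom. Single genes and within-group correlations were compared by exact permutation tests. The study used limma-voom, which was run as an alternative with DESeq2 1.42.0, RLE scaling, 2 other filters, the groups compared alone, separate adjustment, a replicate block, a liver covariate and each mouse left out. Leaving out the kidneys with liver transcripts, all alternatives of the interaction and those of single genes of the wider list were chosen after seeing the data. The procedure was tested on simulated data. Nothing in the labels pairs mice across groups.

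The members and lists were chosen with earlier results of these data known. Named genes are all members, Pex5, genes of the wider list past the threshold in a test, and for Odc1 and Ldc1 the 5 most similar genes. Genes named for liver content or shared sequence, marker genes, and members of the wider list under the filter or short of the threshold were added after their values were seen. Kidneys of 1 group differed by more than sampling noise (chi-square per degree of freedom 9.83 to 99.2 over 60 pairs), and each was counted as 1 mouse. 1 gene of the wider list and 1 marker gene, which belonged to none of the marker lists, were left out after the data were examined, for reasons unrelated to their values, and are not reported here, so each count of the wider list could differ by at most 1. The metabolome was not analysed here.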

Additional observations from a re-analysis of the deposited data

Results flagged for a closer look

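In 8 of 84 sets of 6 mice (21 genes in 4 groups), 1 mouse lay far from the other 5 by Dixon's test, which flags about 1 in 20 sets by chance. Among the members, Oaz1 was at 60.5 CPM in cKOf mouse 6, and the next was at 43.9. Amd1 was at 28.7 CPM in cKOf mouse 2, with the next at 22.6. Of the wider genes, Arg1 was at 4.01 CPM and Mat1a at 5.08 CPM in cKOm mouse 4, where the next mice had 0.457 and 0.686 CPM. That mouse is the cKOm kidney whose liver genes summed to 504 CPM, and the part of liver transcripts in these values was not tested. Mat1a was also far in 1 Ctrlf mouse, with 1.06 CPM against 0.338 in the next.

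Oat stood at 174.8 CPM in cKOm mouse 5 with the next at 155.8, Mat2a at 522 CPM in 1 Ctrlf mouse with the next at 429, and Oaz2 at 110.2 CPM in 1 Ctrlm mouse with the next at 89.0.

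The effect of genotype differed between the sexes, by the edgeR test of the interaction, for Arg2 (1.28 on the log2 scale), Oat (0.59) and Slc22a2 (-0.88). The effects in males and females were 0.89 and -0.39 for Arg2, 0.31 and -0.28 for Oat, and -0.56 and 0.32 for Slc22a2. Of these, the male values passed the threshold and the female values did not. Sex and the extent of Pex5 deletion cannot be told apart in this test. Slc22a2 passed the interaction test in all 32 alternatives, Oat in 31 and Arg2 in 19.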

How the results depend on the processing

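The count of members past the threshold was 2 in males and 0 in females under every alternative. Odc1 for Ctrlm against Ctrlf (1.41 to 1.90) and Ldc1 for cKOm against cKOf (-1.99 to -1.71) passed in all 22. The replicate block gave 2, 0, 1 and 1 members and 1268, 110, 2243 and 1339 of all genes in the male, female, control sex and knockout sex tests. Numbers do not pair these mice (correlation of deviations -0.20 to 0.12 over 36 pairs of the same number, median -0.04). The block ended the male calls of Arg2 and Agmat, the control sex call of Oaz2 and the interaction of Arg2, and changed no other call of a named gene, so that 3 rather than 5 wider genes passed in males.

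Fits of only the groups compared called 3 members between knockout sexes (Odc1, Ldc1 and Amd1). Leaving out a mouse gave 1 to 2 members between control sexes (2 without Ctrlf 4) and 2 to 5 wider genes in males (2 without Ctrlm 3 or 5, and 3 without Ctrlm 1 or 2 or cKOm 2, 3, 5 or 6). It gave 0 to 1 in females, where Oat was called without Ctrlf 1, Ctrlf 2 or cKOf 6 and by DESeq2 (1). Over all 22 alternatives the count of wider genes in males ran from 1 to 7, beside 5 in the main fit. By limma-voom and with every gene, 3 wider genes passed in males. With the liver covariate 3 passed in males and 4 between control sexes. Without the kidneys with liver transcripts 1 and 5 did. Pex5 in males was -0.31 with the covariate (adjusted p = 0.117), -0.26 without those kidneys, and -0.37 to -0.27 with a mouse left out. No cause of these shifts was tested.

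Male calls were lost without Ctrlm 2, 3, 5 or 6 or cKOm 3 or 6 for Arg2 (0.67 to 1.32 over all alternatives, highest adjusted p = 0.116), without Ctrlm 1, 3, 4, 5 or 6 or cKOm 2, 3, 4 or 5 for Oat (0.23 to 0.35, highest adjusted p = 0.459), and without Ctrlm 1 to 5 or cKOm 1, 2, 4, 5 or 6 for Agmat (-1.38 to -0.63, highest adjusted p = 0.691). Oaz2 between control sexes was lost without Ctrlm 4 or 5 or Ctrlf 1, 2, 3, 5 or 6 (0.19 to 0.39, highest adjusted p = 0.106). The interaction of Arg2 was lost without 11 different mice (1.06 to 1.72, highest adjusted p = 0.0759), which were Ctrlm 2, 3, 5 and 6, cKOm 3 and 6, Ctrlf 2 and 6, and cKOf 1, 2 and 4. That of Oat was lost without the kidneys with liver transcripts.

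Signs turned for control sex differences near 0. Azin1 (-0.01) became 0.0099 by DESeq2, 0.01 by RLE, 0.0082 with every gene, 0.0014 with the stricter filter, 0.0735 with the liver covariate, 0.0018 in the groups alone, 0.0914 without the liver kidneys and -0.0434 to 0.0359 with a mouse left out. Amd1 (-0.0043) became 0.0185, 0.0176, 0.0147, 0.0073, 0.0457, 0.0083, 0.0496 and -0.1083 to 0.1531 in that order. With a mouse left out, Srm reached 0.0028 (range -0.2271 to 0.0028), Sms -0.025 (to 0.1738), Sat1 -0.0073 (to 0.1083), and Oaz1 between knockout sexes 0.0088 (from -0.1515). Genotype differences near 0, given without a test, also crossed it. In males Srm ran from -0.2192 to 0.0006 and Sms from -0.1546 to 0.0965 over the alternatives, and in females Odc1 ran from -0.0909 to 0.0427, Oaz1 from -0.0224 to 0.1567, Azin1 from -0.0209 to 0.0883, Amd1 from -0.0616 to 0.1526 and Srm from -0.0464 to 0.1606. With the liver covariate Arg1 became -0.135 and Mat1a -1.34 between control sexes, and Mat1a was -0.9977 without the liver kidneys. Depth limits genes such as Agmat, at 0.335 to 2.52 CPM per male kidney.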

Other observations

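Groups of the wider list with no call are given here. None of 5 tested genes of methylthioadenosine salvage, which recycles the by-product of spermidine and spermine synthesis, passed any test, and their male genotype differences lay between -0.14 and 0.06 on the log2 scale. None of 4 genes of hypusine, the modification of translation factor eIF5A that is made from spermidine, passed either, with male differences from -0.35 to 0.20. Eif5a itself was at 250.4 CPM in Ctrlm and 199.5 CPM in cKOm mice on average (-0.33, standard error 0.10, edgeR adjusted p = 0.0574). The organic cation transporter Slc22a3 was at 0.841 CPM in Ctrlm and 1.88 CPM in cKOm mice (1.14, standard error 0.47, adjusted p = 0.202). Mat2a, which passed between control sexes, had a male genotype difference of -0.32 (standard error 0.11, adjusted p = 0.0794).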
